A study of Rattus norvegicus with 6 samples.

Results

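Genes of serine and glycine synthesis and of the amino acid response driven by the transcription factor ATF4 were examined in the renal cortex of rats given dipropylene glycol (DPG), a glycol solvent. The members were the serine synthesis genes Phgdh, Psat1 and Psph, the serine hydroxymethyltransferase genes Shmt1 and Shmt2, and the ATF4 response genes Atf4, Asns, Trib3, Sesn2 and Chac1. Probes were assigned to them through the RefSeq transcript given for each probe, which found 13 probes for 9 of the 10 genes, among 28206 probes for 15645 gene symbols on the array. No probe was matched to Shmt1, which was not analysed here. All 9 genes passed the filter on low signal through at least 1 probe, and 12 of their 13 probes were kept.

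The DPG group was 3 male Sprague-Dawley (Crl:CD(SD)) rats given 1000 mg/kg/day of DPG for 4 weeks, and the control group was 3 rats of the same strain and sex given water for 4 weeks. All were 5 weeks old when purchased and ate a basal diet. Total RNA of the cortex, the outer part of the kidney, was hybridised to 1 one-colour array per animal. A bulk measurement of this kind cannot tell fewer cells of a type from less RNA per cell.

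Serine is made from the glycolytic intermediate 3-phosphoglycerate by 3 enzymes in sequence, phosphoglycerate dehydrogenase (Phgdh), phosphoserine aminotransferase (Psat1) and phosphoserine phosphatase (Psph). Serine hydroxymethyltransferases then pass a carbon from serine to folate and release glycine, in the cytosol (Shmt1) or in mitochondria (Shmt2), and the kidney is known as an organ that releases serine into the blood. ATF4 is a transcription factor whose translation increases when kinases phosphorylate the initiation factor eIF2, for example when amino acids are scarce, and it pairs with C/EBP proteins at a composite DNA element to induce genes of amino acid synthesis, transport and stress.

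Promoters that held letters of this C/EBP-ATF response element are shown first, since several genes named below carry it. The motif searched was TGATGNAAN, on both strands, in windows of 300 bases from 250 bases before to 50 after each gene start (RefSeq, build GRCr8). It was found in 2 of the 10 member promoters, those of Chac1 and Trib3, and in 1328 of 33469 promoter windows of the table (3.97%). The stricter TGATGCAAT, which is a case of the first motif, was found in 0 member promoters and in 63 windows (0.188%). The lines give the windows of Chac1 and Trib3 and of 3 related genes, Slc1a4, Jdp2 and Herpud1, which were chosen with their values known. Capitals mark the match.
Chac1, chr3:126795881-126796180, plus strand: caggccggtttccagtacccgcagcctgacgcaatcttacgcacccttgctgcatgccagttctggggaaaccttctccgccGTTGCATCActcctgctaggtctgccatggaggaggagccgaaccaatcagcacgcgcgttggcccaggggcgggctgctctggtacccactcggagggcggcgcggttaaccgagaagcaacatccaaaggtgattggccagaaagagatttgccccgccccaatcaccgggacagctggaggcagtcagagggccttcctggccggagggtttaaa
Trib3, chr3:161275484-161275783, minus strand: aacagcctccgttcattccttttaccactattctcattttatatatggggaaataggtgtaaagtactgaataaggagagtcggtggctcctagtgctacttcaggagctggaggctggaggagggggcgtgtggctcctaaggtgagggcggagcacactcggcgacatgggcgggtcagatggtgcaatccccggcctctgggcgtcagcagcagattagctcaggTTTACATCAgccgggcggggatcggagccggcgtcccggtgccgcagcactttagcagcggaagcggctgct
Slc1a4, chr14:98761513-98761812, minus strand: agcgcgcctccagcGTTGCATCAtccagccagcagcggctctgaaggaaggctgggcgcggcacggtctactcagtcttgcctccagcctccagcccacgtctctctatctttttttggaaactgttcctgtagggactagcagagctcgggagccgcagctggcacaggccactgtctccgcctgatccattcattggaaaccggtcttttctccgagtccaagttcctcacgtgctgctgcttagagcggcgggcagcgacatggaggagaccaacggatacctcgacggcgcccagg
Jdp2, chr6:110993341-110993640, plus strand: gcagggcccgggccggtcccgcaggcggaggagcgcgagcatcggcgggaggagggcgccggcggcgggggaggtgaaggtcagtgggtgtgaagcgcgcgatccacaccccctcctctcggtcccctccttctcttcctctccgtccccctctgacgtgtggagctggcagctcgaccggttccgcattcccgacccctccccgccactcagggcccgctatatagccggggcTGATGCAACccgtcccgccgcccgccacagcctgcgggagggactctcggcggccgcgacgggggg
Herpud1, chr19:10614658-10614957, minus strand: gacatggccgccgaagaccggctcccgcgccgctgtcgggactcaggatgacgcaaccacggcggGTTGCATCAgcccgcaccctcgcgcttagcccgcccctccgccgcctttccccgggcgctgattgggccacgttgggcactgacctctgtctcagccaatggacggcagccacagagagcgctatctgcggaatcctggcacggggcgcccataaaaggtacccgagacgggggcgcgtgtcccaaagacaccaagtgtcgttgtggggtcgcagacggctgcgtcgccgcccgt
In Chac1 the match read TGATGCAAC on the strand opposite to the gene, 168 to 160 bases before the start. In Trib3 it read TGATGTAAA, also on the opposite strand, 22 to 14 bases before the start. A match describes letters and does not show that a factor binds there.

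Between 39556 and 43184 of 61537 probes per array were well above background, 41524 to 41937 on the DPG arrays and 39556 to 43184 on the control arrays. With 3 arrays per group, precision is limited by their number. Control 3 had the fewest such probes and 34 spots with outlier flags, against 4 in DPG 1 and 0 elsewhere. All DPG arrays lay on 1 slide and all control arrays on another, so slide and group cannot be told apart. All listed markers of the proximal tubule, thick ascending limb, collecting duct and podocytes passed the filter on low signal. Pvalb and Trpm6, of the distal convoluted and connecting tubule list, were not among the measured genes.

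The comparison asked whether DPG altered these genes in the cortex. At a limma p of 0.05 after Benjamini-Hochberg adjustment, 0 of 29647 features (0%) were called, members included, while 3669 (12.4%) passed an unadjusted p of 0.05. At that unadjusted threshold 2 of the 9 members passed, Phgdh and Chac1, both with lower signal in DPG on their brightest probe, and 0 passed with higher signal. Over all features 5.70% passed with lower and 6.68% with higher signal. DPG and control arrays were fully separated for the same 2 members, against 19.7% of all features, 8.96% with lower signal in DPG. The median log2 fold change (DPG over control) was 0.0035 over all features. Without DPG 2 or without DPG 3 the count of lower members was 1. Without control 2 the lower members were Phgdh and Psph, and without control 3 they were Phgdh and Sesn2. The count was 2 in both of these fits, but Chac1 did not pass. Signal below is given relative to the 75th percentile of its array, so that 1 is the signal at that percentile, and levels of different probes are not comparable.

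**Figure D1:**
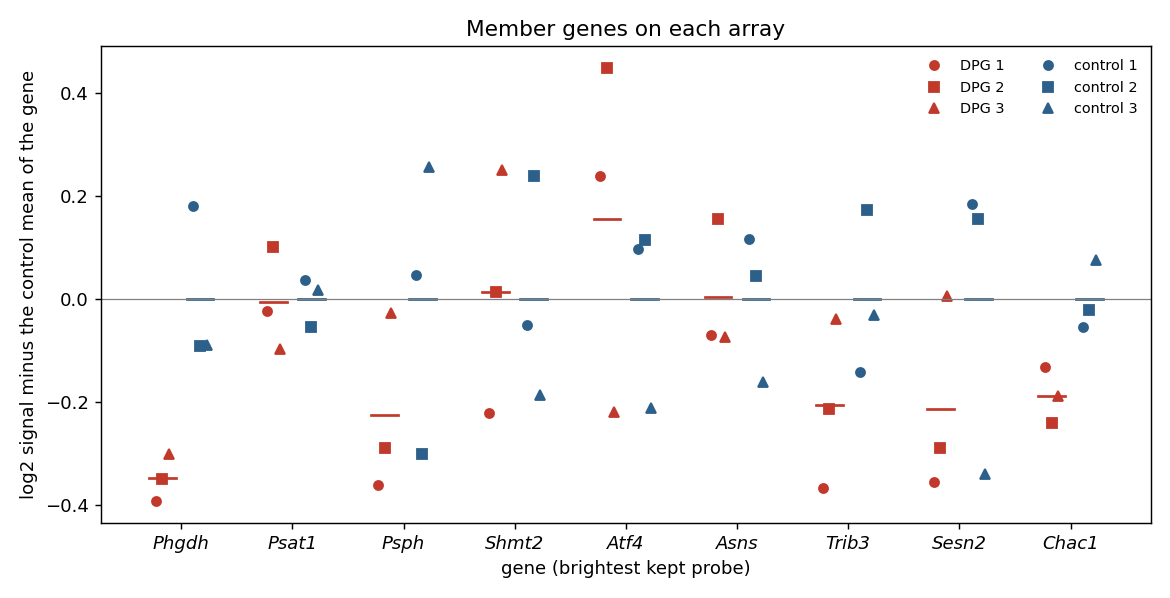
Log2 signal of the 9 measured member genes on each array (brightest kept probe), minus the control mean of that gene; red symbols are the 3 DPG arrays, blue symbols the 3 control arrays, and bars are group means. The DPG arrays lie below every control array for Phgdh and Chac1, and the groups overlap for the other 7 genes.

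Phgdh, the first and committed enzyme of serine synthesis, had the largest difference of the 9 genes on their brightest probes. Its relative signal was 76.8, 79.1 and 81.8 on the DPG arrays, against 114.1, 94.6 and 94.8 on the control arrays. All DPG arrays were below all control arrays and lay close together, while control 1 stood above the other controls. The means were 79.2 ± 2.49 in DPG and 101.2 ± 11.2 in control (SD, n = 3 each), a log2 fold change of -0.35 ± 0.10 (SE), or 1.27-fold lower in DPG. The 95% interval ran from -0.58 to -0.11, and the limma adjusted p was 0.297. Its second probe gave 75.3, 80.7 and 82.6 in DPG and 108.7, 91.1 and 95.6 in control, a log2 fold change of -0.31 ± 0.09 (SE). Both probes thus showed the same order of groups and of DPG arrays. The unadjusted threshold was passed in each of the 12 alternative settings and in each of the 6 fits that left out an animal, with log2 fold changes from -0.39 to -0.26 over those 6.

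Psph, which removes the phosphate in the last step, had relative signals of 5.28, 5.55 and 6.66 in DPG and 7.004, 5.503 and 8.10 in control. DPG 1 and DPG 2 lay near control 2, and the other controls were above all DPG arrays. Its log2 fold change was -0.23 ± 0.17 (SE, 3 rats per group), with a 95% interval from -0.63 to 0.18 and a limma adjusted p of 0.621. Without control 2 it was -0.38, at an adjusted p of 0.427 from limma, and without control 3 it was -0.098.

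Psat1, the aminotransferase of the middle step, gave 42.8, 46.7 and 40.7 in DPG and 44.6, 41.9 and 44.1 in control on its brighter probe. DPG 2 was the highest array and DPG 3 the lowest, so the groups were interleaved. The log2 fold change was -0.0063 ± 0.077 (SE), with a 95% interval from -0.20 to 0.18. Its dimmer probe read 0.484, 0.473 and 0.418 in DPG and 0.455, 0.321 and 0.469 in control, a log2 fold change of 0.16 ± 0.16 (SE). The interval of the brighter probe does not reach the measured value of Phgdh but overlaps its interval, from -0.58 to -0.11. The difference between these genes was not tested.

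Shmt2, the mitochondrial hydroxymethyltransferase, had relative signals of 8.91, 10.5 and 12.3 in DPG and 10.02, 12.2 and 9.12 in control. The groups covered nearly the same range. The log2 fold change was 0.014 ± 0.16 (SE, 3 rats per group), with a 95% interval from -0.38 to 0.41. The interval holds changes in either direction, so a difference within those limits is not excluded.

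**Figure D2:**
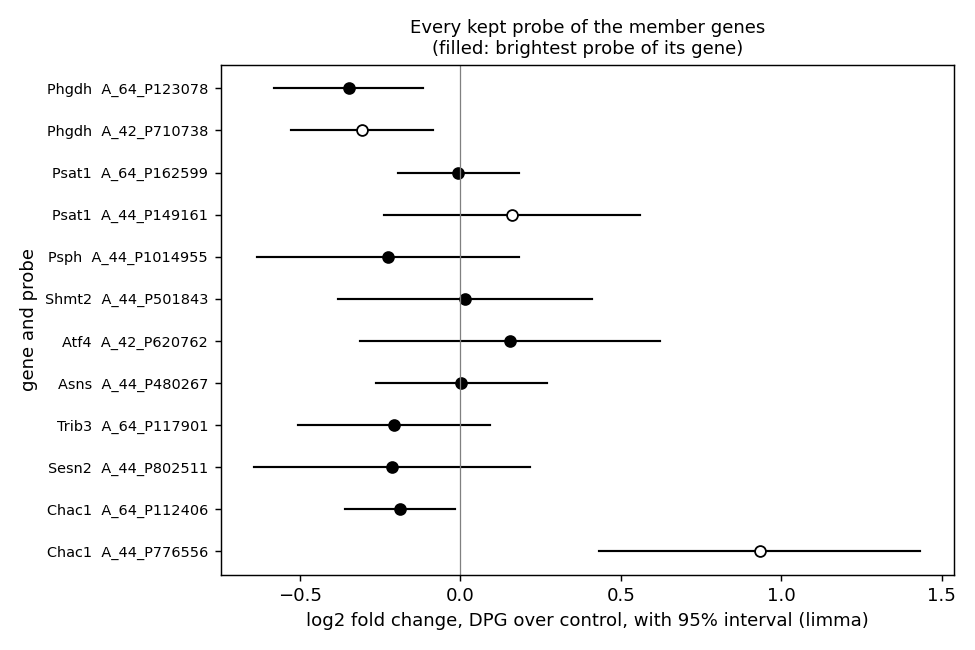
Log2 fold change, DPG over control, of each of the 12 kept probes of the member genes, with the 95% interval from limma; filled circles are the brightest probe of each gene. The 2 Phgdh probes lie at -0.35 and -0.31, and the 2 kept Chac1 probes lie at -0.19 and 0.93.

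Atf4 itself had relative signals of 26.08, 30.17 and 18.996 in DPG and 23.7, 23.9 and 19.1 in control. DPG 1 and DPG 2 were above every control, and DPG 3 lay next to control 3, the lowest control. The log2 fold change was 0.16 ± 0.19 (SE, 3 rats per group), with a 95% interval from -0.32 to 0.63 and a limma adjusted p of 0.769. It was 0.34 without DPG 3, 0.0092 without DPG 2 and 0.050 without control 3, so that its size depended on single animals. The array measures its transcript and not the protein.

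Asns, which makes asparagine and is a classical ATF4 target, gave 0.526, 0.615 and 0.524 in DPG and 0.598, 0.569 and 0.493 in control. The groups overlapped fully, with DPG 2 highest and control 3 lowest. The log2 fold change was 0.0038 ± 0.11 (SE), with a 95% interval from -0.26 to 0.27.

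Trib3, a pseudokinase that binds ATF4 and dampens its activity, had relative signals of 0.0478, 0.0532 and 0.05996 in DPG and 0.0559, 0.0695 and 0.0603 in control. DPG 3 lay among the controls, and the other DPG arrays were below all of them. The log2 fold change was -0.21 ± 0.12 (SE, 3 rats per group), with a 95% interval from -0.51 to 0.093 and a limma adjusted p of 0.543.

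Sesn2, a stress-induced leucine sensor that restrains the growth kinase complex mTORC1, gave 0.802, 0.839 and 1.03 in DPG and 1.17, 1.14 and 0.810 in control. Control 3 lay within the range of the DPG arrays. The log2 fold change was -0.21 ± 0.18 (SE), with a 95% interval from -0.64 to 0.22 and a limma adjusted p of 0.657. Without control 3, the array with the fewest probes above background, it was -0.38 at an adjusted p of 0.418 from limma, and over the 6 fits without 1 animal it ran from -0.38 to -0.12.

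Chac1, a glutathione-degrading enzyme induced late in the ATF4 response, had log2 fold changes of opposite sign on its 2 kept probes. The brightest, A_64_P112406, read 0.468, 0.434 and 0.450 in DPG and 0.494, 0.505 and 0.541 in control. All DPG arrays were below all controls, with a log2 fold change of -0.19 ± 0.07 (SE, 3 rats per group), a 95% interval from -0.36 to -0.016 and a limma adjusted p of 0.382. The dimmer A_44_P776556 read 0.0420, 0.05003 and 0.0296 in DPG and 0.0184, 0.0215 and 0.0227 in control, so all DPG arrays were above all controls. Its log2 fold change was 0.93 ± 0.20 (SE), with a limma adjusted p of 0.265 over all kept probes. It was well above background on 3 of 3 DPG arrays and 1 of 3 control arrays. It thus passed the filter only through the group where it was higher, so its p is not support for a higher signal. With signals below the background floor raised to that floor, it was 1.77-fold higher in DPG, against 1.91-fold. The third probe, A_43_P17471, was not well above background on any array. All 3 probes are assigned to transcript NM_001173437. The mean of the 2 kept probes gave a log2 fold change of 0.37, so the direction of Chac1 depended on the probe. With normexp background correction the brightest probe had -0.062, and it passed the unadjusted threshold in 2 of 6 fits that left out an animal.

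Markers of the tubule segments were summed on the same arrays as a measure of tissue makeup. Of 11 markers of the convoluted proximal tubule, 5 had lower and 0 higher signal in DPG at an unadjusted p of 0.05, and 0 passed the adjusted threshold. Their median log2 fold change was -0.29, and their summed relative signal was 1070 to 1148 in DPG and 1181 to 1307 in control. Of 10 markers of the straight part, 5 were higher and 0 lower, with a median of 0.31 and a summed signal of 842 to 968 in DPG and 613 to 774 in control. Of 7 thick ascending limb markers, 5 were higher and 0 lower, with a median of 0.28 and a sum of 669 to 727 in DPG and 556 to 603 in control. Of 8 podocyte markers, 4 were lower, with a median of -0.21 and sums of 30.0 to 36.9 in DPG and 32.3 to 40.7 in control. The shares of all features at the unadjusted threshold were 5.70% lower and 6.68% higher. The part of these segments in the lower Phgdh signal was not tested.

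**Figure D3:**
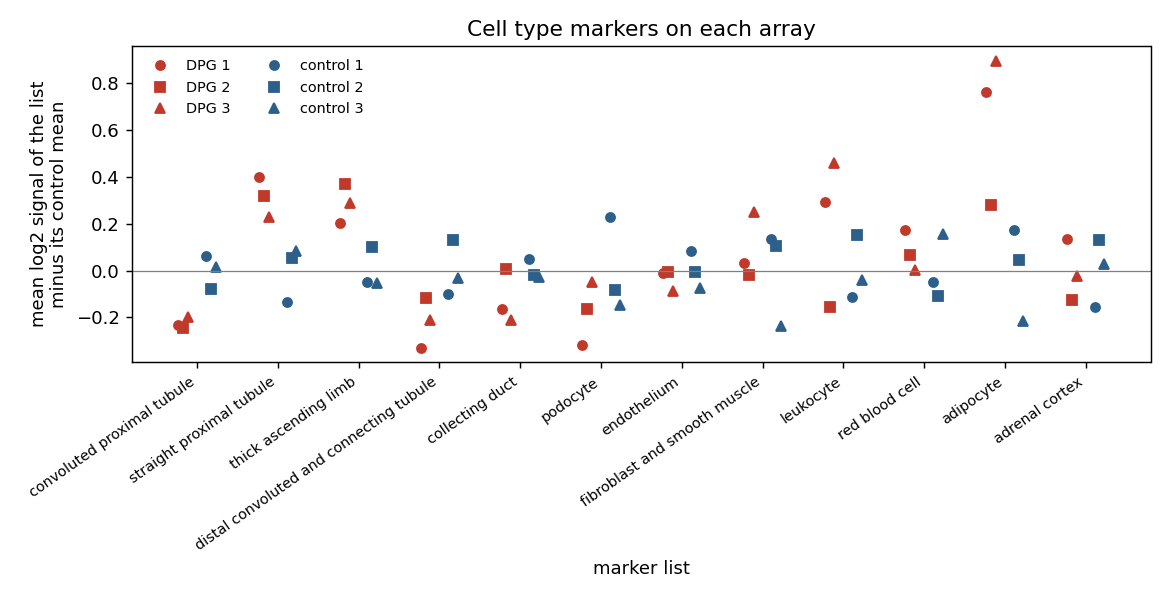
Mean log2 signal of 12 cell type marker lists on each array, minus the control mean of the list; red symbols are the 3 DPG arrays and blue symbols the 3 control arrays. The DPG arrays lie below the controls for the convoluted proximal tubule and for the distal convoluted and connecting tubule. They lie above the controls for the straight proximal tubule, thick ascending limb and adipocytes.

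The genes around the members were taken from 8 pathway lists with 132 different genes, of which 118 were measured. None passed the adjusted threshold (smallest limma adjusted p = 0.256). At an unadjusted p of 0.05, 8 had higher and 5 lower signal in DPG, 11.0% of those measured, against 12.4% of all features. The share was thus near the background, and the median log2 fold change of the lists' genes was -0.010.

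In folate one-carbon metabolism, which takes up the carbon that serine hydroxymethyltransferases release, 1 of 17 genes had higher and 1 lower signal at the unadjusted threshold, with a median log2 fold change of -0.043. Mthfd2, the mitochondrial folate dehydrogenase and an ATF4 target, had relative signals of 0.326, 0.338 and 0.313 in DPG and 0.259, 0.282 and 0.236 in control. The groups did not overlap, the log2 fold change was 0.33 ± 0.09 (SE), and its 4 kept probes ranged from 0.12 to 0.57. Aldh1l2, the mitochondrial enzyme that oxidises formyl folate and also an ATF4 target, was below every control on all DPG arrays, with a log2 fold change of -0.25 ± 0.07. Tyms and Ftcd, the next genes by p, had -0.22 ± 0.10 and 0.43 ± 0.28.

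Among genes that use serine or glycine, 1 of 24 had higher and 2 had lower signal at the unadjusted threshold, with a median of -0.045. Dao, the D-amino acid oxidase of the proximal tubule, had -0.22 ± 0.07, and Amt, a subunit of the glycine cleavage system, had -0.21 ± 0.07. Sdsl, a serine dehydratase-like gene, gave 7.80, 6.56 and 10.3 in DPG and 3.66, 6.13 and 5.47 in control, a log2 fold change of 0.70 ± 0.25. Pipox, which oxidises sarcosine and pipecolate in peroxisomes, had -1.11 ± 0.46, and its arrays overlapped.

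The eIF2 branch upstream of ATF4 held 18 measured genes, 2 with higher and 0 with lower signal at the unadjusted threshold and a median of 0.030. Ppp1r15a, the inducible phosphatase subunit that reverses eIF2 phosphorylation, had a log2 fold change of 0.21 ± 0.07, and Dele1, which relays mitochondrial stress to an eIF2 kinase, had 0.15 ± 0.06. Eif2s3 and Eif2b3, subunits of eIF2 and of its exchange factor, had 0.14 ± 0.08 and 0.15 ± 0.08. The arrays of Ppp1r15a and Dele1 did not overlap between the groups, with higher signal in DPG. Those of Eif2b4, named here after its values were seen, did not overlap either, with lower signal in DPG and a log2 fold change of -0.084 ± 0.06. Such separation, in either direction, was found for 19.7% of all features.

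Factors related to ATF4 had a median of 0.24 over 10 genes, with 1 higher and 0 lower at the unadjusted threshold. Jdp2, a dimerisation partner of the AP-1 family, had relative signals of 0.113, 0.102 and 0.103 in DPG and 0.0660, 0.0737 and 0.0852 in control, and a log2 fold change of 0.51 ± 0.11. Trib2 had 0.28 ± 0.12, the stress factor gene Ddit3 (CHOP) 0.28 ± 0.14, and the dimerisation partner gene Cebpg -0.18 ± 0.11. The other kept probe gave 0.027 for Trib2 and 0.13 for Ddit3. With the mean of a gene's probes the median of the list was 0.19. Jdp2 was above every control on each DPG array, whereas the arrays of Ddit3 overlapped.

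Other ATF4 targets had 2 of 15 measured genes higher and 1 lower at the unadjusted threshold, with a median of -0.019. Besides Mthfd2 and Aldh1l2 these included Herpud1, a gene of endoplasmic reticulum protein degradation, with 19.6, 27.2 and 16.8 in DPG and 10.9, 13.9 and 15.0 in control. Cth, the enzyme that makes cysteine from cystathionine, had a log2 fold change of 0.31 ± 0.14, with its arrays overlapping. Of 7 measured amino acid transporters, 1 was higher and 1 lower, with a median of -0.0047. Slc1a4, a neutral amino acid transporter that carries serine, gave 0.0664, 0.0599 and 0.0581 in DPG and 0.0241, 0.0400 and 0.0453 in control, a log2 fold change of 0.80 ± 0.24. Slc3a2, the heavy chain shared by several transporters, gave 13.9, 14.7 and 17.4 in DPG and 18.6, 18.0 and 18.2 in control, a log2 fold change of -0.26 ± 0.10. For both genes the groups did not overlap, in opposite directions. Slc1a5, a glutamine transporter gene, had 0.19 ± 0.12.

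Cytosolic aminoacyl-tRNA synthetases, many of which are ATF4 targets, lay close to 0, with 0 of 20 past the unadjusted threshold and a median of 0.012. Iars1 had 0.24 ± 0.10, Wars1 0.10 ± 0.07 and Cars1 0.17 ± 0.12. Among relatives of the sestrins and of Chac1 and other amino acid sensing genes, 1 of 11 was higher and 1 lower, with a median of -0.037. Sesn3, a sestrin paralogue, had -0.47 ± 0.17, and Ggct, which acts after CHAC enzymes in glutathione breakdown, had 0.41 ± 0.16. Chac2 had 0.13 ± 0.09 and the arginine sensor gene Castor1 -0.12 ± 0.09.

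**Figure D4:**
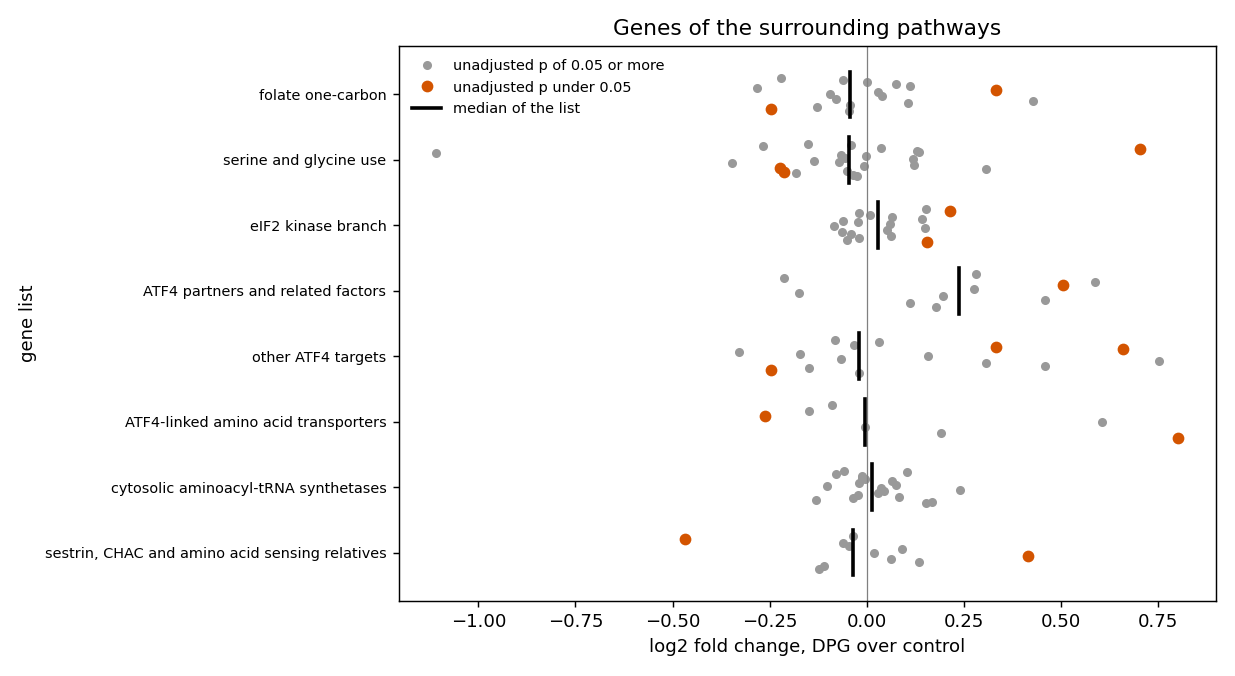
Log2 fold change, DPG over control, of each measured gene of 8 pathway lists; orange points passed an unadjusted limma p of 0.05, grey points did not, and black bars are list medians. List medians lie between -0.045 and 0.24, and the passing genes stand on both sides of 0.

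Some of the ATF4-linked lists varied among the DPG animals as Atf4 did, and others did not. The mean log2 shift of the related factors from their control mean was 0.25, 0.37 and 0.044 in DPG 1 to 3, and -0.081, 0.11 and -0.031 in controls 1 to 3. For the transporters it was 0.21, 0.29 and -0.039 in DPG 1 to 3, and -0.097, 0.057 and 0.040 in controls 1 to 3. For the other targets it was 0.14, 0.19 and -0.013 in DPG 1 to 3, and 0.026, 0.068 and -0.094 in controls 1 to 3. In each of these lists DPG 2 was highest and DPG 3 lowest of the DPG arrays, as they were for Atf4. Among the controls, control 3 was lowest for Atf4 and for the other targets. For the related factors and the transporters control 1 was lowest. Cebpb belongs to both the related factors and the other targets. In the eIF2 branch the mean shift was 0.0010, 0.084 and 0.031 in DPG 1 to 3. For the aminoacyl-tRNA synthetases it was 0.0177, 0.0418 and 0.0179, so DPG 3 was not the lowest DPG array in either list. The folate list had 0.039, -0.055 and 0.0023, and genes that use serine or glycine had -0.11, -0.070 and 0.0024. Relatives of the sestrins and of Chac1 had -0.025, 0.0097 and -0.018. DPG 3 was not the lowest DPG array in any of these lists. Slc38a2, a neutral amino acid transporter gene, gave 5.32, 7.65 and 3.29 in DPG and 3.34, 3.49 and 3.25 in control, a log2 fold change of 0.61 ± 0.30. Without DPG 3 the median log2 fold change of the related factors was 0.39 and that of the transporters 0.18, and without DPG 2 they were 0.16 and -0.11. The order of the DPG arrays differed among the other members. DPG 1 was the lowest DPG array for Trib3, Sesn2, Phgdh, Psph and Shmt2, and DPG 2 for the brightest Chac1 probe. On the dimmer kept Chac1 probe, for Asns and on the brighter Psat1 probe, DPG 2 was highest and DPG 3 lowest, as for Atf4. For Asns, DPG 1 and DPG 3 were nearly equal, at 0.526 and 0.524.

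The response element letters were also counted in the promoters of the pathway genes. TGATGNAAN was held by 17 of 115 windows of 109 pathway genes (14.8%), against 3.97% of all windows. Of the 14 measured genes with a match, 3 had higher signal at the unadjusted threshold, Slc1a4, Jdp2 and Herpud1, and 0 had lower, with a median log2 fold change of 0.15. Of the 83 measured genes without a match, 4 were higher and 4 lower, with a median of -0.020. Over all features 6.68% were higher and 5.70% lower at that threshold, and the counts here are small. The matches of Slc1a4, Jdp2 and Herpud1 all read TGATGCAAC, the same letters as in Chac1, and lay 236 to 228, 16 to 8 and 185 to 177 bases before the start. Cars1, Mars1, Nars1, Ppp1r15b, Tars1 and Yars1 held the same letters, and none of them passed the unadjusted threshold. Their log2 fold changes were 0.17, 0.074, -0.021, 0.15, -0.013 and -0.059. The stricter TGATGCAAT was held by 5 of the 115 windows (4.35%), against 0.188% of all windows. Of the genes with it, Aars1, Iars1 and Nupr1 were measured. They had 0.15, 0.24 and 0.59, and none passed the unadjusted threshold. The lists were built from known ATF4 targets, and the difference between genes with and without a match was not tested.

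Smtnl2 and Prkce were among the genes whose pattern over the 6 arrays was nearest to Phgdh, out of 11923 symbols compared. Likeness was the root mean square difference of log2 signals, each gene centred on its mean over the 6 arrays, and it was 0.0390 for Smtnl2 and 0.0396 for Prkce, against a median of 0.24. Prkce, a protein kinase C gene, had 0.301, 0.291 and 0.311 in DPG and 0.427, 0.377 and 0.368 in control, with control 1 the highest array, as in Phgdh.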

How the data were processed

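Cy3-labelled cRNA from the renal cortex of 6 rats was hybridised to 1 Agilent array per animal, per the labels' protocols. The deposited scanner files hold spot intensity from Agilent Feature Extraction 10.7.1.1 per the file headers (10.7 per the submitters' processing notes), background-subtracted and spatially detrended, not scaled between arrays. A deposited table holds a ratio, the processed signals divided by a constant close to each array's 75th percentile; the scaling step was inferred from the values. Over probes above 0.05 in that table, the scanner signal was a nearly constant multiple of it, for example 930 to 932 in control 1. It served as 1 alternative, as did the deposited median pixel intensity after normexp correction (offset 50).

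Control spots were left out and 0 other spots were saturated. Log2 processed signal minus the array's 75th percentile was tested in probes well above background on all 3 arrays of a group, without 23 probes with outlier flags. The brightest kept probe stood for a gene; unnamed probes were grouped by accession. Names came from RefSeq accessions of GRCr8. DPG was set against control in limma 3.58.1 (R 4.3.3; two-sided, 4 residual and 1.95 prior degrees of freedom) and Benjamini-Hochberg adjustment over 29647 features. With 3 arrays per group the smallest two-sided p of an exact permutation test is 0.1. After ±, limma's standard error of a log2 fold change is given unless SD is named. In simulated data for this comparison on 29647 features, the fit recovered 28% of genes changed 1.5-fold and 82% of those changed 2-fold, with 8 false calls.

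The members and lists were chosen with earlier results of these data known. Named were all members, up to 4 genes of each list by smallest p and the 3 genes nearest to Phgdh; some of these are not reported here.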

Additional observations from a re-analysis of the deposited data

How the results depend on the processing

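Phgdh stayed below 0 in each of 12 alternatives and 6 fits without 1 animal. No member passed an adjusted p of 0.05 in any of these 18 settings (limma). The count of features past it was 0 in the 12 alternatives and 0 to 1 with an animal left out. The 1 feature was the transcript XM_344619, without DPG 2, named after its values were seen. The count past the unadjusted p of 0.05, against 3669, was 2537 to 3914 in the fits without 1 animal. The count of members lower at that threshold, 2 in the report, was 1 with normexp, 1 without a filter on dim probes, 1 with the mean of a gene's probes and 1 with the replicate block, and 1 to 2 in the fits without 1 animal. The count of higher members was 1 with the mean of a gene's probes (Chac1).

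Signs turned for Chac1 with the mean of its probes (0.37), for Psat1 with median scaling (0.0085) and the mean of its probes (0.077), for Shmt2 with quantile normalization (-0.0044) and array quality weights (-0.040), and for Asns with array quality weights (-0.012). With an animal left out Psat1 ranged from -0.060 to 0.039, Shmt2 from -0.10 to 0.13 and Asns from -0.077 to 0.062. The mean of a gene's probes takes in the dimmer Chac1 probe; the other causes were not tested. Replicate numbers did not pair the arrays: deviations of same-numbered arrays from their group means correlated at -0.023, -0.087 and -0.069 across features, which are not independent. With the replicate block 2987 features passed the unadjusted threshold and 0 the adjusted one. A slide block could not be fitted, since each group lay on its own slide.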

Other observations

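Further marker lists gave the following values. At an unadjusted limma p of 0.05, 6.68% of all features were higher and 5.70% lower. Of 10 collecting duct markers, 1 was higher and 3 lower at an unadjusted limma p of 0.05, with a median log2 fold change of -0.18. Of 5 measured distal convoluted and connecting tubule markers, 1 was lower (median -0.17). Their mean log2 shift was -0.33, -0.12 and -0.21 in DPG 1 to 3, and -0.0997, 0.13 and -0.030 in controls 1 to 3. Every DPG array was thus below every control for this list. Leukocyte markers had a mean log2 shift of 0.29, -0.16 and 0.46 in DPG 1 to 3, and -0.11, 0.15 and -0.039 in controls 1 to 3, so that DPG 2 stood apart from the other DPG arrays. Endothelial markers had a median of -0.065, those of fibroblasts and smooth muscle 0.059, those of red blood cells 0.091 and those of the adrenal cortex -0.12. Of 4 measured adipocyte markers 2 were higher and 1 lower, with Plin1 and Lep not kept by the filter, and the median log2 fold change was 0.57. Their mean log2 shift was 0.76, 0.28 and 0.89 in DPG 1 to 3, and 0.17, 0.046 and -0.22 in controls 1 to 3, so every DPG array was above every control. Their summed relative signal, of which Adipoq gave the largest part, was 1.06 to 1.55 in DPG and 1.31 to 1.64 in control.

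Cebpb, a partner of ATF4 named here after its values were seen, had relative signals of 7.71, 9.30 and 4.05 in DPG and 4.77, 5.08 and 4.61 in control. Ddit4, an inhibitor of mTORC1 and an ATF4 target named in the same way, had a log2 fold change of 0.75 ± 0.37 (SE, 3 rats per group).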
